A study of Mus musculus with 15 samples.

Results

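Interferon-stimulated genes are the transcripts that cells switch on after interferons, the antiviral cytokines, bind their receptors. Here 40 such genes, named from textbook lists by gene symbol, were followed through a mouse model of liver cancer and through the thymi of the same animals. They were chosen with earlier results of these data known, so their shares beside those of all genes are not a blind comparison. Of the 40, 39 had a row among the 13938 protein-coding genes of the gene table. Mx2 was present in the transcript table only. Messenger RNA had been sequenced in 15 tissues, in 5 groups of 3 samples. The model mice had been injected intraperitoneally with diethylnitrosamine (DEN), a carcinogen that alkylates DNA, and carbon tetrachloride (CCl4), a liver toxin. From each of model mice 8, 15 and 25 came a big and a small nodule of hepatocellular carcinoma (HCC) and the thymus. Control mice had received corn oil by the same route and gave 3 normal livers and 3 normal thymi, whose table columns carry the numbers 2, 3 and 5. The labels give no strain, sex, age or day of harvest. Livers of control mice differ from nodules both by the tumour and by the toxins the model mice had received, and these cannot be told apart.

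Type I interferons signal through the receptor chains Ifnar1 and Ifnar2 and the kinases Jak1 and Tyk2 to a transcription factor complex that contains Stat2 and Irf9. That complex binds the interferon-stimulated response element, whose core is GAAA, any 2 bases (NN) and GAAA again, in the promoters of its targets. Interferon-gamma signals through Ifngr1 and Ifngr2 to the gamma-activated site TTCNNNGAA of its target genes. In liver, hepatocytes and the resident and recruited macrophages can both carry this response, and in thymus several genes of it are expressed without infection.

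The letters of that core were found in many promoters of the genes followed here. A set of 6 that hold the core is printed. Of these, 5 belong to genes that changed strongly between nodules and livers, while Irgm1 did not pass the test. Promoter windows of RefSeq (build GRCm38.p6) reach from 250 bases before the annotated start to 50 bases after it, and 29 of the 40 genes had one. The other 11, which are Usp18, Oas2, Dhx58, Zbp1, Mx1, Mx2, Ifi204, Ifi27, Rtp4, Parp9 and Parp14, are named only. Each stretch below is the 170 bases directly before the start, written 5′ to 3′ on the strand of the gene, with every match to that core (GAAA, NN, GAAA) on either strand in capitals. Matches that overlap run together. The stretches lie at chr5:120907526-120907695 for Oas1a, chr5:120887614-120887783 for Oas1g, chr4:156200819-156200988 for Isg15 and chr11:48871421-48871590 for Irgm1, on the minus strand, and at chr19:34640719-34640888 for Ifit1 and chr19:34583359-34583528 for Ifit3, on the plus strand.
Oas1a: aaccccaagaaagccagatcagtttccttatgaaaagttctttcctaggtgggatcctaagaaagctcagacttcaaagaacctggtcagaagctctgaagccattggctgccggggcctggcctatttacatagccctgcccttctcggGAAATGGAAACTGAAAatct
Oas1g: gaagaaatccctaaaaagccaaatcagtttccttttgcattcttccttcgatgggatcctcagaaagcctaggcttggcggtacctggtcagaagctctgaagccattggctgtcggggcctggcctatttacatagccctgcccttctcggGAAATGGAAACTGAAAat
Isg15: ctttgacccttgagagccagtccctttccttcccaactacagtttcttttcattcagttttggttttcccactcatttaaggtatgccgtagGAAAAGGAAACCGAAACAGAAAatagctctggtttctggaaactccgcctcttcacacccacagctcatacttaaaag
Ifit1: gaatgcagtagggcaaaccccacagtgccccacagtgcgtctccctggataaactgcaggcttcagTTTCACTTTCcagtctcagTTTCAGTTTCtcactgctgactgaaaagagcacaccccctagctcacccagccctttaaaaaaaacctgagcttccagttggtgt
Ifit3: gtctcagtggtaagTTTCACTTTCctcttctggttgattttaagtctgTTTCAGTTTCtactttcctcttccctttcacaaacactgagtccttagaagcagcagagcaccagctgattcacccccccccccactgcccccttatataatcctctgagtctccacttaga
Irgm1: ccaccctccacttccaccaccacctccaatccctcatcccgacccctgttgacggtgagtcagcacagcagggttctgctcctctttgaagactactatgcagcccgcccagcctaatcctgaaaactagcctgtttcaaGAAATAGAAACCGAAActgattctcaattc
In Oas1a, Oas1g and Irgm1 a pair of overlapping matches lay close to the start, in Isg15 3 matches overlapped, and in Ifit1 and Ifit3 the matches lay on the opposite strand, as TTTC, NN and TTTC, and stood apart. The stretches of Oas1a and Oas1g were identical at 145 of 165 aligned bases (87.9%).

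Over whole windows, 19 of the 29 genes (65.5%) held the core on either strand, against 1079 of all 27025 genes with a window (3.99%). A gene with several windows was counted if any of them held a match. TTCNNNGAA was found in 8 of the 29 (27.6%), against 2582 of 27025 (9.55%), and 4 genes held both. Genes that rose in nodules and genes that did not pass the test both held the core: it was present in 12 of 18 that rose (66.7%) and in 6 of 10 that did not pass. Strong changes were also seen without it: the windows of Ifi44, Ifit2 and Xaf1, which rose by 1.90, 1.31 and 1.21, held no match. A match of these letters is a description of the window and not a site of binding.

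The 39 genes were mostly low to moderate transcripts in normal liver. Their FPKM (sequenced fragments per kilobase of a transcript, normalised to library size) summed to 432 to 715 in the 6 nodules, against 301 to 358 in the 3 livers. Bst2 and Ifi27 were the largest terms of these sums, with means of 161 and 105 FPKM in nodules and 134 and 47.8 FPKM in livers. Of these, Bst2 did not pass the test described below. The mean of the log2(FPKM + 1) values of the 39 genes was 2.78 to 3.46 in nodules, against 2.11 to 2.26 in livers, so the groups did not overlap. In thymus the summed FPKM was 447 to 498 in model mice and 441 to 541 in control mice, and those ranges overlapped. The number of reads behind a value is unknown, so no counting error is given and precision rests on 3 samples a group. By title livers 3 and 5 name the same mouse, so the p-values of comparisons with livers may rest on 2 control animals.

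**Figure D1:**
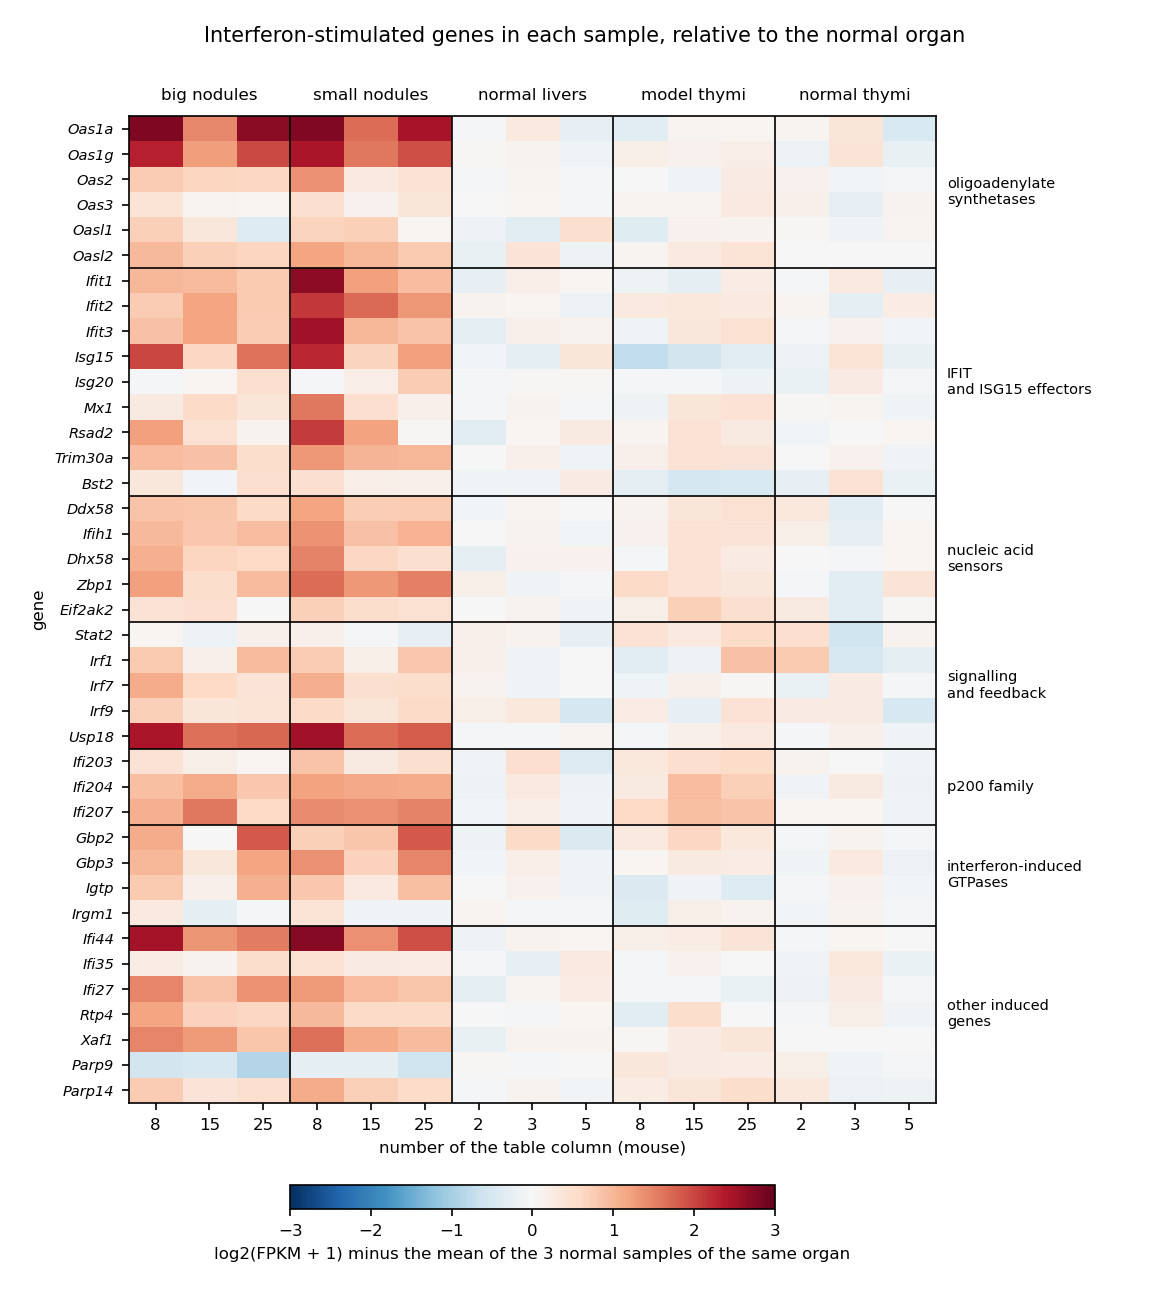
Level of each of the 39 genes in each of the 15 samples as log2(FPKM + 1) minus the mean of the 3 normal samples of the same organ (colour), with genes in rows by role and samples in columns. The 6 nodule columns are red for most genes, deepest for Oas1a, Usp18, Oas1g and Ifi44 and in the small nodule of mouse 8, while Parp9 is blue and the thymus columns are pale.

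Nodules were compared with normal livers with limma on log2(FPKM + 1), with both nodules of each animal averaged so that 3 mice stood against 3 livers. Of 37 genes tested, 26 rose (70.3%), 1 fell and 10 did not pass an adjusted p of 0.05. Over all 10669 genes tested, 27.4% rose and 13.1% fell. The median log2 change was 0.85 for these genes and 0.13 for all genes. In 25 of the 37 all 6 nodules lay above all 3 livers, where 27.4% of all genes did so, and in 1 all nodules lay below all livers, where 12.3% of all genes did so. Mx1 and Oas3 stayed under the filter of 1 FPKM in 3 samples and were not tested. These are whole pieces of tissue, in which fewer cells of a type and less RNA per cell cannot be told apart. The annotations of Irf1, Irf7, Rtp4 and Parp9 overlap another protein-coding gene on the opposite strand, and those of Irf9, Ifi203 and Igtp one on the same strand, so reads there may be shared. The split of calls over all genes moved with the scaling, from 67.6% upward as deposited to 78.8% after rescaling to the same sum and 48.9% after median-of-ratios scaling. The median of these genes stayed 0.67 to 0.73 above the median of all genes under every scaling tried, with 22 to 28 genes higher and none or 1 lower.

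**Figure D2:**
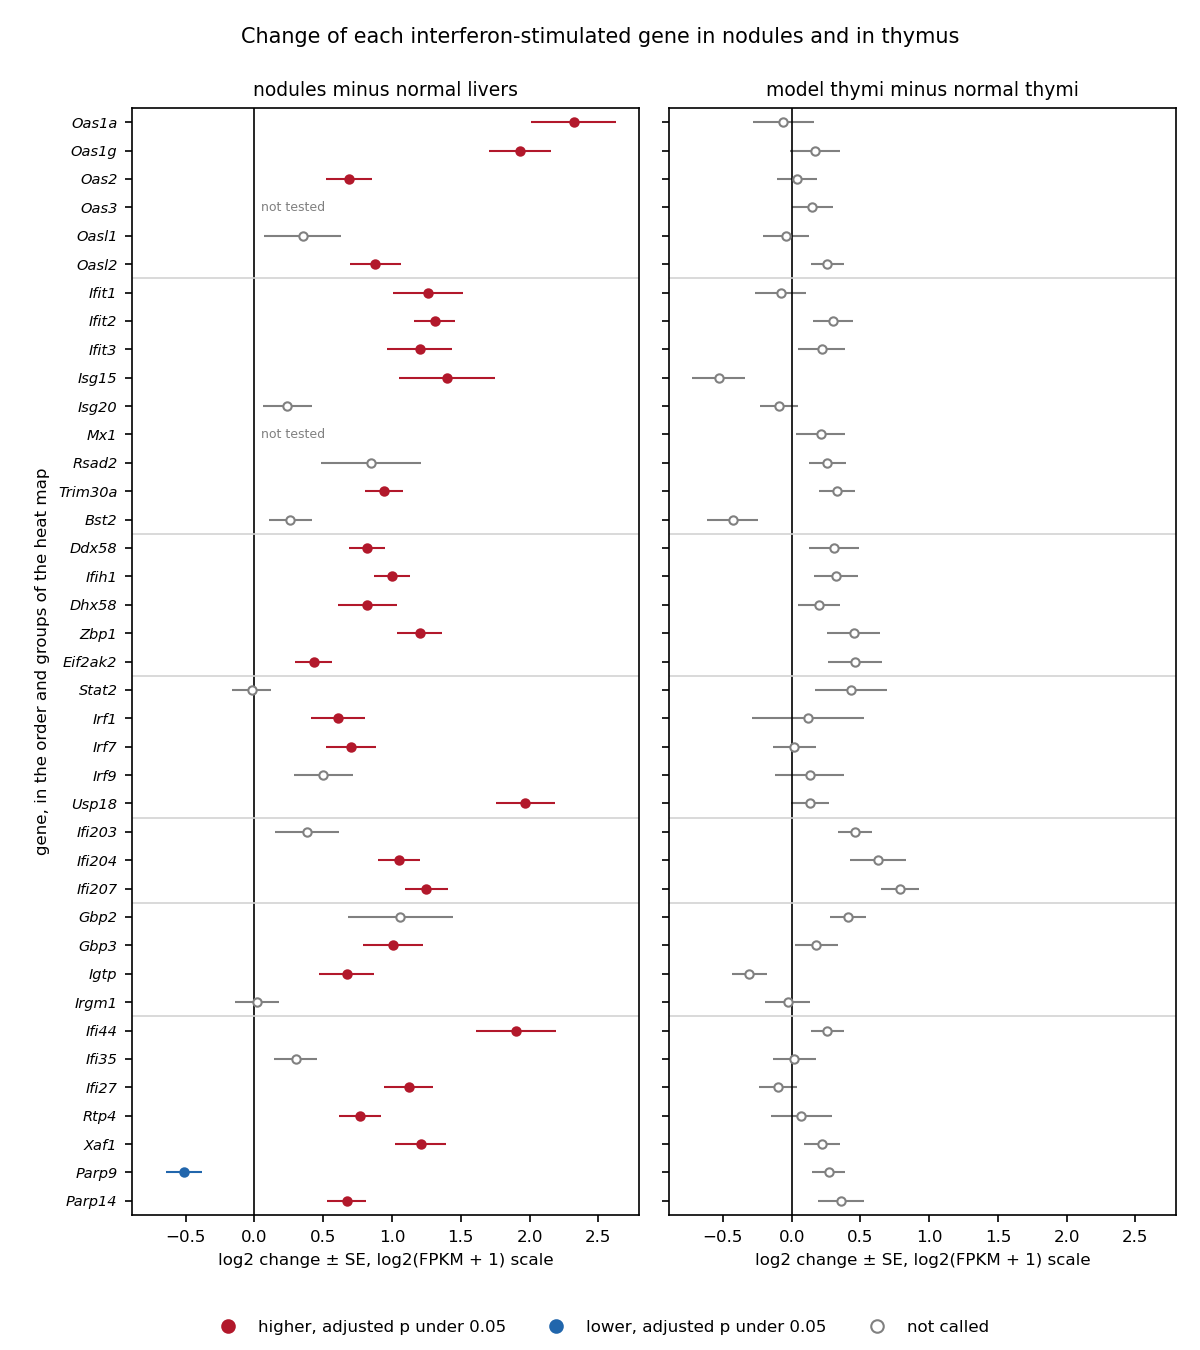
Log2 change of each gene on the log2(FPKM + 1) scale with its standard error (bars), for nodules minus normal livers on the left and model thymi minus normal thymi on the right, 3 against 3 in each. On the left 26 points are filled red and Parp9 is filled blue; on the right no point passed the threshold, and Ifi204 and Ifi207 lie farthest to the right.

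The oligoadenylate synthetases make a second messenger from double-stranded RNA that activates the ribonuclease RNase L, and 4 of the 5 tested rose. Oas1a (chr5:120896256-120907521, mm10) stood at 18.7, 6.78 and 17.6 FPKM in the big nodules of mice 8, 15 and 25 and at 18.7, 8.16 and 14.7 FPKM in their small nodules, against 1.78, 2.46 and 1.40 FPKM in livers 2, 3 and 5. Every nodule was above every liver, and both nodules of mouse 15 were the lowest. The log2 change was 2.32 (SE 0.307, adjusted p = 7.49e-04 with limma), the largest of the 37 tested. Its neighbour Oas1g (chr5:120876142-120887613) was at 6.63, 2.66 and 5.02 FPKM in the big nodules and 7.38, 3.58 and 4.85 FPKM in the small ones, against 0.552, 0.635 and 0.394 FPKM in the livers. Oas1g thus followed the same order of mice, with a change of 1.93 (SE 0.227, adjusted p = 4.33e-04). The longest coding transcripts of both genes are identical at 97.5% of aligned bases, so reads could have been split between them and their separate levels are uncertain.

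Oasl2, whose product resembles the synthetases and carries ubiquitin-like domains, had 1.90 to 3.22 FPKM in nodules, against 0.597 to 1.43 FPKM in livers, and rose by 0.88. Oas2, a larger synthetase, ran from 0.933 to 3.02 FPKM in nodules and from 0.515 to 0.667 FPKM in livers. Its change of 0.69 (adjusted p = 0.0128) passed under every alternative but quantile normalization, where the adjusted p was 0.117 (range over alternatives 0.00233 to 0.117). Oasl1, which in mouse restrains translation of Irf7, did not pass (adjusted p = 0.349), with 2.62 to 6.85 FPKM in nodules and 2.74 to 5.67 FPKM in livers. Oas3 was barely detected in either tissue, at 0.155 to 0.555 FPKM in nodules and 0.0866 to 0.154 FPKM in livers.

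Among the antiviral effectors 5 of 8 tested rose. The Ifit genes encode proteins that bind foreign RNA, and all 3 rose. Ifit1 (chr19:34640871-34650009) was at 6.73, 6.41 and 5.64 FPKM in the big nodules of mice 8, 15 and 25 and at 23.6, 7.98 and 6.35 FPKM in the small ones, against 2.22, 3.41 and 3.00 FPKM in livers. The small nodule of mouse 8 stood far above the other 5, which lay close together and still above all livers. Ifit1 rose by 1.26 (SE 0.253, adjusted p = 0.00538), Ifit2 by 1.31 (SE 0.151, adjusted p = 3.83e-04) and Ifit3 by 1.20 (SE 0.234, adjusted p = 0.00469). Ifit3 (chr19:34583531-34588731) had 13.8, 17.3 and 12.6 FPKM in the big nodules and 44.5, 15.0 and 13.4 FPKM in the small ones, against 5.60, 7.93 and 7.65 FPKM in livers. As for Ifit1, 5 nodules lay close together above all livers and 1 stood out. Ifit3 shares 98% of aligned bases with its copy Ifit3b, so its reads may be divided between them. Ifit2 (chr19:34550694-34576419) had 2.62, 3.89 and 2.67 FPKM in the big nodules and 8.26, 5.97 and 4.30 FPKM in the small ones, against 1.304, 1.23 and 0.894 FPKM in livers, with every nodule higher.

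Isg15 encodes a ubiquitin-like protein that is joined to other proteins and was among the most abundant of these transcripts. It lies at chr4:156199424-156200818. Its level was 41.4, 15.1 and 31.4 FPKM in the big nodules of mice 8, 15 and 25 and 49.6, 15.8 and 23.5 FPKM in the small ones, against 8.86, 7.78 and 12.4 FPKM in livers. All nodules exceeded all livers, but the nodules of mouse 15 lay only just above the highest liver. The change was 1.40 (SE 0.349, adjusted p = 0.0142). Without liver 3 the adjusted p was 0.0531, the one alternative in which the call was lost (range over alternatives 0.00298 to 0.0531). Trim30a, a ubiquitin ligase that in mouse restrains inflammatory signalling, rose by 0.94. It had 4.92, 4.67 and 3.43 FPKM in the big nodules and 6.69, 5.24 and 5.16 FPKM in the small ones, against 2.054, 2.42 and 1.84 FPKM in livers, without overlap.

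The remaining effectors did not pass. Rsad2, which encodes the antiviral enzyme viperin, ran from 2.62 to 14.1 FPKM in nodules and from 1.84 to 3.31 FPKM in livers (log2 change 0.85, adjusted p = 0.0975). The nodules of mouse 25 were the lowest, and without that mouse the change was 1.25 (adjusted p = 0.0127; range over alternatives 0.0127 to 0.253). Bst2, the membrane protein tetherin, was the most abundant of the 39 transcripts in liver tissue, with 125 to 187 FPKM in nodules and 122 to 157 FPKM in livers, and those ranges overlapped. It passed under quantile normalization alone (adjusted p = 0.0300, range over alternatives 0.0300 to 0.806). Isg20, an exonuclease, had 1.77 to 3.88 FPKM in nodules and 1.73 to 1.94 FPKM in livers. Mx1, a dynamin-like GTPase whose gene is defective in many laboratory mouse strains, had 0.503 to 3.02 FPKM in nodules and 0.290 to 0.462 FPKM in livers. Mx2, its paralogue, was listed in the transcript table at 1.70 FPKM in the big nodule of mouse 15, at 1.24 and 0.140 FPKM in the small nodules of mice 8 and 15, and at 0 in the other nodules, against 1.87 FPKM in liver 5 and 0 in livers 2 and 3.

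All 5 sensors of foreign nucleic acid rose. Ifih1, which encodes the double-stranded RNA sensor MDA5 (chr2:62595798-62646255), had 11.1, 9.73 and 10.7 FPKM in the big nodules and 14.7, 10.4 and 11.7 FPKM in the small ones, against 5.08, 5.64 and 4.78 FPKM in livers. The nodules were closer to each other than those of Oas1a, Ifit1 or Ifit3, and Ifih1 rose by 1.00 (SE 0.128, adjusted p = 6.48e-04). In Ifit1 and Ifit3 the wider spread came from the small nodule of mouse 8. Zbp1, a sensor of Z-form nucleic acid that can trigger necroptosis (chr2:173206612-173218923), had 4.34, 2.32 and 3.46 FPKM in the big nodules and 6.39, 4.63 and 5.52 FPKM in the small ones, against 1.60, 1.12 and 1.19 FPKM in livers. It was above every liver in every nodule and rose by 1.20 (SE 0.163, adjusted p = 8.33e-04). Ddx58, the sensor RIG-I, rose by 0.82 and held 6.48 to 10.4 FPKM in nodules, against 3.76 to 4.37 FPKM in livers. Dhx58, the related helicase LGP2, also rose by 0.82, to 4.53 to 9.996 FPKM in nodules, against 2.29 to 3.36 FPKM in livers. Its call was lost without liver 2 (adjusted p = 0.0666) and under quantile normalization (0.0687), with a range over alternatives of 0.00872 to 0.0687. Eif2ak2, the RNA-activated kinase PKR, had the smallest rise, 0.43 (adjusted p = 0.0320), and its lowest nodule, 3.69 FPKM in the big nodule of mouse 25, lay within the livers' range of 3.35 to 4.02 FPKM. That call was lost in 7 of 18 alternatives, among them those without mouse 8 (adjusted p = 0.106), mouse 15 (0.0886), liver 2 (0.0813) and liver 5 (0.0865).

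Of the genes that carry the signal or damp it, 3 of 5 rose. Usp18 encodes the protease that removes Isg15 and blocks the receptor chain Ifnar2, and it changed most (chr6:121245906-121270917). It stood at 13.3, 7.22 and 7.63 FPKM in the big nodules of mice 8, 15 and 25 and at 14.0, 7.39 and 8.21 FPKM in the small ones, against 1.56, 1.53 and 1.78 FPKM in livers. The lowest nodule was several times above the highest liver, and the change was 1.97 (SE 0.212, adjusted p = 2.74e-04). Irf7, the transcription factor that amplifies type I interferon production, had 5.53 to 9.84 FPKM in nodules and 3.58 to 4.39 FPKM in livers, a change of 0.70 (adjusted p = 0.0173). Its call was lost without liver 3 (adjusted p = 0.0589), under median-of-ratios scaling (0.0596) and under quantile normalization (0.0731), and the range over alternatives was 0.00727 to 0.0731. Irf1, a transcription factor that interferon-gamma induces, passed narrowly at 0.61 (adjusted p = 0.0405), with 5.15 to 9.64 FPKM in nodules and 4.03 to 5.15 FPKM in livers. Both nodules of mouse 15 were near the liver level, and the call was lost in 10 of 18 alternatives. These included the fits without mouse 8 (0.115), mouse 25 (0.121), liver 2 (0.0634), liver 3 (0.116) and liver 5 (0.0892).

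Stat2 and Irf9, which belong to the complex that binds the response element, did not pass. Stat2 had 6.46 to 8.82 FPKM in nodules and 6.45 to 8.77 FPKM in livers, practically the same range. Irf9 had 6.48 to 8.50 FPKM in nodules and 3.13 to 6.28 FPKM in livers, with no overlap but a wide spread among the livers (log2 change 0.50, adjusted p = 0.0988). It passed after rescaling to the same sum (adjusted p = 0.0371, range over alternatives 0.0371 to 0.275).

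Of the p200 family, DNA-binding proteins of which Ifi204 is a sensor of cytosolic DNA in mouse, 2 of 3 rose. Ifi207 (chr1:173723427-173741747) was at 5.34, 8.09 and 3.59 FPKM in the big nodules and 7.11, 6.89 and 7.60 FPKM in the small ones, against 1.90, 2.53 and 1.78 FPKM in livers. Unlike most of these genes it was highest in a nodule of mouse 15, and its change was 1.25 (SE 0.155, adjusted p = 5.40e-04). Ifi204 rose by 1.05, with 5.92 to 8.06 FPKM in nodules and 2.53 to 3.86 FPKM in livers. Ifi203 overlapped between groups, with 2.63 to 5.34 FPKM in nodules and 1.66 to 3.90 FPKM in livers (adjusted p = 0.223; 0.0356 without liver 3, range over alternatives 0.0356 to 0.636). Its annotation overlaps that of Mndal on the same strand, and it matches Ifi207 at 90.6% of aligned bases. The reads of Ifi203 are therefore hard to place, and some may be shared with Ifi207.

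The GTPases that interferon-gamma in particular induces, and that attack the vacuoles of intracellular pathogens, were split. Gbp3 (chr3:142560026-142573209) had 5.54, 3.14 and 6.46 FPKM in the big nodules and 7.49, 4.27 and 8.05 FPKM in the small ones, against 2.098, 2.79 and 2.00 FPKM in livers. All nodules were above all livers, and the gene rose by 1.01 (SE 0.219, adjusted p = 0.00776). Igtp rose by 0.67 (adjusted p = 0.0277). It had 21.7, 13.7 and 26.5 FPKM in the big nodules and 22.2, 15.2 and 23.7 FPKM in the small ones, against 11.9, 13.4 and 11.1 FPKM in livers, with the nodules of mouse 15 just above the highest liver. Its call was lost in 6 of 18 alternatives, among them those without mouse 8 (adjusted p = 0.0794), mouse 25 (0.0812), liver 2 (0.0799) and liver 5 (0.0782). Its annotation overlaps Irgm2 on the same strand. Gbp2 had a change as large as that of Gbp3, 1.06, but did not pass (adjusted p = 0.0574). It ran from 2.22 to 10.7 FPKM in nodules and from 1.42 to 3.84 FPKM in livers, and it passed in 5 alternatives, among them those without mouse 15 (adjusted p = 0.0275) and without liver 3 (0.0386; range over alternatives 0.0275 to 0.160). Irgm1, whose promoter is printed above, stood at 13.3, 8.48 and 10.2 FPKM in the big nodules and 14.7, 9.88 and 9.90 FPKM in the small ones, against 11.3, 10.3 and 10.5 FPKM in livers, and the groups overlapped.

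Of the other induced genes 5 of 7 rose and 1 fell. Ifi44, a cytoplasmic protein of poorly known function (chr3:151730922-151749960), had 6.55, 2.35 and 2.89 FPKM in the big nodules and 7.82, 2.43 and 4.14 FPKM in the small ones, against 0.196, 0.433 and 0.391 FPKM in livers. It went with the Oas genes in being highest in mouse 8, and it rose by 1.90 (SE 0.289, adjusted p = 0.00142). Ifi27, a small membrane protein, was abundant (chr12:103434211-103440239). It had 133, 85.9 and 121 FPKM in the big nodules and 115, 91.1 and 85.1 FPKM in the small ones, against 38.5, 49.9 and 55.0 FPKM in livers, and rose by 1.12 (SE 0.179, adjusted p = 0.00185). Xaf1, a binding partner of the apoptosis inhibitor XIAP, rose by 1.21 (SE 0.185, adjusted p = 0.00146). It had 3.43, 2.89 and 1.87 FPKM in the big nodules and 4.04, 2.47 and 2.09 FPKM in the small ones, against 0.384, 0.730 and 0.739 FPKM in livers, so each nodule was above each liver. Rtp4, a chaperone of membrane receptors, rose by 0.77, with 4.49 to 7.47 FPKM in nodules and 2.61 to 2.88 FPKM in livers. Parp14, a mono-ADP-ribosyltransferase, rose by 0.67, with 5.14 to 9.08 FPKM in nodules and 3.45 to 4.08 FPKM in livers. Ifi35 had 15.6 to 21.4 FPKM in nodules and 12.1 to 17.9 FPKM in livers and did not pass (adjusted p = 0.165; 0.0443 without liver 5, range over alternatives 0.0443 to 0.626).

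Parp9 was the exception in direction. It stood at 8.41, 8.95 and 6.51 FPKM in the big nodules of mice 8, 15 and 25 and at 10.5, 10.3 and 8.21 FPKM in the small ones, against 13.3, 12.4 and 12.8 FPKM in livers. Every nodule was below every liver, and the change was -0.51 (SE 0.131, adjusted p = 0.0161). Dtx3l, the ubiquitin ligase that forms a complex with Parp9 and lies beside it on the opposite strand, fell by 0.73 (adjusted p = 0.00308). It had 5.40 to 10.1 FPKM in nodules and 11.6 to 12.4 FPKM in livers. The annotations of both genes share 682 bases, and the strand setting of the counting is not given in the sources used here. The Parp9 call was lost without liver 2 (adjusted p = 0.0587), after rescaling to the same sum (0.0510) and with small nodules alone (0.0626), with a range over alternatives of 0.00398 to 0.0626, while the direction held in each. The Dtx3l call was lost with small nodules alone (adjusted p = 0.0541, the upper end of a range from 6.72e-04).

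**Figure D3:**
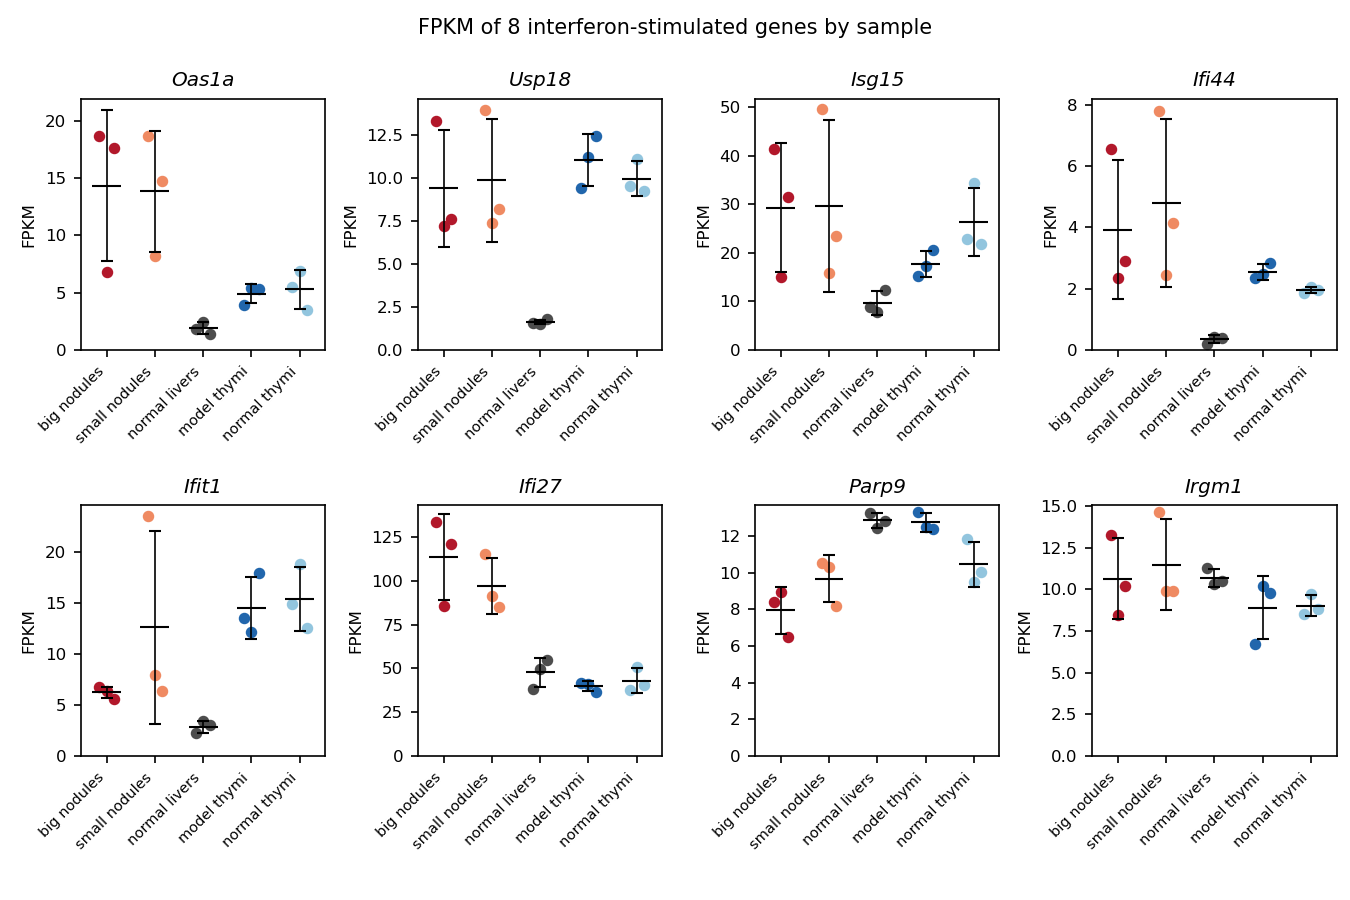
FPKM of 8 genes in each sample (points), with the mean (line) and SD (bars) of the 3 samples of a group, for big nodules, small nodules, normal livers, model thymi and normal thymi from left to right. Oas1a, Usp18, Isg15, Ifi44, Ifit1 and Ifi27 are higher in all nodules than in all livers, Parp9 is lower, and Irgm1 overlaps.

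The pathway around these genes was read from further lists. Of the 21 interferon genes listed, 0 had a row in the gene table, so no ligand was measured here. All 5 receptor chains tested rose. Ifngr1, the ligand-binding chain for interferon-gamma, stood at 36.0, 38.4 and 27.3 FPKM in the big nodules and 32.4, 24.1 and 24.7 FPKM in the small ones, against 5.19, 4.92 and 5.30 FPKM in livers. That change of 2.34 (adjusted p = 1.51e-05) was as large as that of Oas1a, and the nodules were far apart from the livers. Ifngr2 rose by 1.56 and Il10rb, a chain shared by receptors for type III interferons and interleukins, by 1.41. The type I chains moved less, Ifnar2 by 0.60 (adjusted p = 0.00406) and Ifnar1 by 0.48 (adjusted p = 0.0308). The call for Ifnar1 was lost in 8 of 18 alternatives (up to an adjusted p of 0.144), among them the fits without mouse 8 (0.0909), mouse 15 (0.0565), mouse 25 (0.0703), liver 2 (0.0555) or liver 5 (0.0687).

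Of the negative regulators 4 of 9 rose, led by Socs3 at 1.05. Among upstream sensing genes 3 of 10 rose and 1 fell, shares near those of all genes (27.4% and 13.1%). The one that fell was Mavs, the mitochondrial adaptor of RIG-I and MDA5, by 0.62, with 15.3 to 19.7 FPKM in nodules and 24.9 to 30.0 FPKM in livers. In the wider list of other interferon-induced genes 32 of 51 rose (62.7%) and 2 fell, with a median change of 0.68. Ifi27l2b, a paralogue of Ifi27, was at 227 to 308 FPKM in nodules and at 4.30 to 10.6 FPKM in livers, a change of 5.09. Of the GTPases and chemokines of interferon-gamma 9 of 14 rose, among them Cxcl9, a chemokine for T cells, by 2.67, with 9.38 to 66.9 FPKM in nodules and 2.27 to 4.42 FPKM in livers.

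Markers of several cell types were counted in the same comparison, in which 27.4% of all genes rose and 13.1% fell. The shares that rose among T and NK cell markers (16.7%) and hepatocyte markers (30.0%) were below or near that of all genes. Of 12 macrophage and monocyte markers tested, 10 rose and 1 fell, and the 15 listed summed to 329 to 428 FPKM in nodules, against 124 to 164 FPKM in livers. Markers of Kupffer cells, the resident macrophages of liver, mostly did not pass: of 5 tested, 1 rose and 0 fell. Those 5 summed to 102 to 175 FPKM in nodules and 88.0 to 119 FPKM in livers, and the ranges overlapped. Of 6 T and NK cell markers tested, 1 rose, and the 12 measured summed to 6.50 to 36.2 FPKM in nodules, against 2.97 to 5.72 FPKM in livers, where Klrb1c was under 0.1 FPKM in every liver. Of 9 stellate cell and fibroblast markers 6 rose and 1 fell, and of 10 endothelial markers 6 rose and 1 fell. Hepatocyte markers were present in every sample of liver tissue, where the 10 listed summed to 32406 to 45061 FPKM in nodules and 21131 to 24628 FPKM in livers, while 3 of the 10 rose and 4 fell. The 8 thymocyte markers summed to 1991 to 2291 FPKM in model thymi and 1981 to 2312 FPKM in normal thymi. Mitochondrially encoded transcripts held 2.88 to 8.98% of the summed FPKM of the gene table in nodules and 7.83 to 11.1% in livers, and 6 of 13 fell. Of 9 immediate early genes 6 fell. The part of these differences in the change of the interferon-stimulated genes was not tested.

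The order of the mice was alike for many genes. Averaged over both nodules, mouse 8 was highest of the 3 mice for 30 of the 39 genes, including all 6 synthetases and all 5 sensors. Mouse 15 was lowest for 20 and mouse 25 for 18. The GTPases went another way: mouse 25 was highest for Gbp2, Gbp3 and Igtp, and mouse 15 was lowest for all 4. Gbp2 was at 10.7 FPKM in both nodules of mouse 25, against 6.03 FPKM in the big and 4.38 FPKM in the small one of mouse 8. Mice were ordered after their values were seen, and no test was made of this order. The same counts over all genes are not given here, so an order particular to these genes cannot be told from one shared by all genes.

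Big nodules were compared with small ones, 3 against 3. With limma 0 of 37 genes passed, as did 0% of all 10415 genes in either direction. At an unadjusted p under 0.05, none of these genes was higher and 2 were lower, Ifit2 and Zbp1, where 1.45% of all genes were higher and 2.55% lower. Ifit2 had 2.62, 3.89 and 2.67 FPKM in the big nodules of mice 8, 15 and 25, against 8.26, 5.97 and 4.30 FPKM in the small ones, a change of -0.80 (SE 0.232, adjusted p = 0.949). Zbp1 had 4.34, 2.32 and 3.46 FPKM in the big nodules, against 6.39, 4.63 and 5.52 FPKM in the small ones, a change of -0.59 (SE 0.206, adjusted p = 0.949). In both genes the small nodule was the higher in each mouse and the groups did not overlap. Groups did not overlap in 4 genes, each lower in big nodules (the others were Ifi204 and Trim30a), where 6.00% of all genes were lower without overlap and 3.16% higher.

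Most of the small differences pointed the same way. The change was above 0 in 6 of the 37 genes, where it was above 0 in 39.3% of all genes, and the median was -0.14 for these genes and -0.05 for all. Within mice, 16 of the 39 were lower in the big nodule of all 3 mice and 1, Rtp4, was higher in all 3. In mice 8, 15 and 25 the big nodule was the lower for 78.4%, 78.4% and 62.2% of the 37 genes. Over all 10415 genes it was the lower for 53.8%, 66.8% and 50.1%, so part of this lean was shared by all genes. The share of all genes that were lower in all 3 mice is not given here. With the mouse as a block, again 0 of the 37 passed. For Ifit1 and Ifit3 a single sample set the size of the difference. For 24 of the 39 genes, with no such count over all genes given here, the small nodule of mouse 8 was the highest of the 6 nodules. It stood at 23.6 FPKM for Ifit1, 44.5 for Ifit3, 3.02 for Mx1 and 3.02 for Oas2. Without it the change of Ifit1 was -0.17, against -0.70 with it, and that of Ifit3 was 0.02, against -0.50 with it. Without that nodule 27 genes rose between nodules and livers and 1 fell. The interaction with organ described below again gave 13 and 1, but the 13 were not all the same genes. Ifit3 was no longer called there (0.71, adjusted p = 0.0529 with limma). Without the big nodule of mouse 25, whose mitochondrial share was the lowest, 26 rose and 1 fell.

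**Figure D4:**
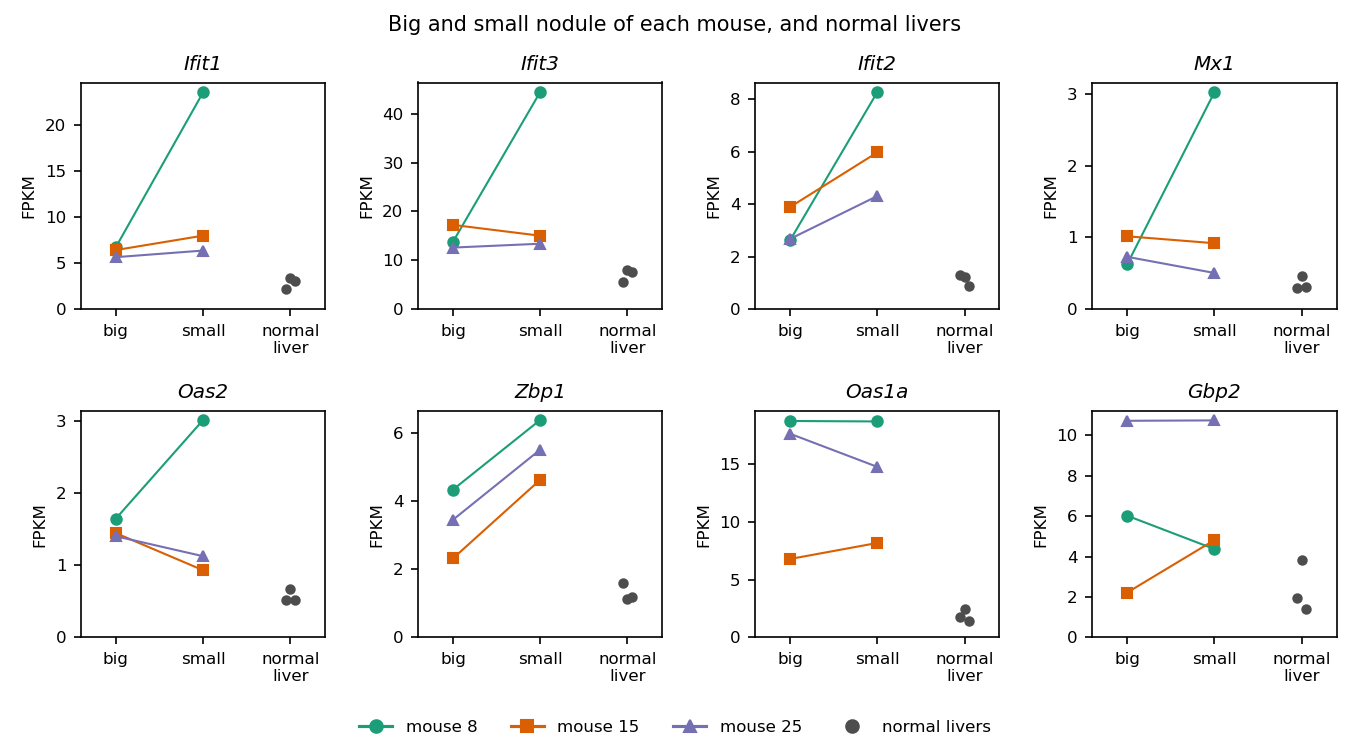
FPKM of 8 genes in big and small nodules by mouse (lines join nodules of a mouse) and in the 3 normal livers (grey points). Ifit1, Ifit3, Mx1 and Oas2 peak in the small nodule of mouse 8; Ifit2 and Zbp1 are higher in the small nodule of each mouse; Oas1a is lowest in mouse 15 and Gbp2 highest in mouse 25.

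In the thymus of tumour-bearing mice no interferon-stimulated gene passed the test. With limma, 0 of 39 genes and 0% of all 11332 genes had an adjusted p under 0.05 in either direction. At an unadjusted p under 0.05, 6 genes were higher and 2 lower in model thymi, where 6.69% of all genes were higher and 3.54% lower. The change was above 0 in 30 of the 39 (57.4% of all genes), with a median of 0.20 against 0.05 over all genes. Model thymi lay wholly above normal thymi in 10 genes and wholly below in 3, where 12.3% and 6.53% of all genes did so.

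All 3 p200 genes were among the 6 on the higher side, and Ifi207 had the lowest p. It stood at 4.47, 5.77 and 5.56 FPKM in the thymi of model mice 8, 15 and 25, against 2.77, 2.79 and 2.32 FPKM in those of control mice 2, 3 and 5. The groups were apart, but the change of 0.79 (SE 0.139) had an adjusted p of 0.435. Ifi204 was at 3.15 to 5.57 FPKM in model thymi and at 2.12 to 3.16 FPKM in normal thymi, and Ifi203 at 13.0 to 15.7 FPKM in model thymi and at 9.34 to 11.3 FPKM in normal thymi. Their changes were 0.63 and 0.46, each with an adjusted p of 0.481. Ifi203 and Ifi207 match at 90.6% of aligned bases, so reads may be shared and their changes may not be separate. The other 3 with an unadjusted p under 0.05 on that side were Trim30a, Zbp1 and Gbp2, with changes of 0.33, 0.45 and 0.41. On the lower side Isg15 had 15.2, 17.3 and 20.5 FPKM in model thymi, against 22.9, 34.4 and 21.9 FPKM in normal thymi, a change of -0.53 (SE 0.193, adjusted p = 0.481). Igtp also lay wholly lower, at 49.9 to 63.0 FPKM in model thymi and 64.2 to 74.2 FPKM in normal thymi. Bst2 lay lower too, at 52.3 to 62.3 FPKM in model thymi and 64.6 to 103 FPKM in normal thymi. Normal thymus 3 was the highest of the 3 normal thymi for Isg15, Igtp and Bst2. Markers of macrophages in the same thymi summed to 437 to 632 FPKM in model mice and 332 to 505 FPKM in control mice, and the part of this in the values above was not tested.

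The difference between organs was tested as an interaction, the change in nodules minus the change in thymus, over 12 values. Of 39 genes 13 had a larger change in nodules (33.3%) and 1 a smaller one, where 14.6% of all 12683 genes had a larger and 7.62% a smaller change. The largest was that of Oas1a at 2.38 (SE 0.417, adjusted p = 0.00143), followed by Isg15 at 1.94 (SE 0.441, adjusted p = 0.00744), Usp18 at 1.84 and Oas1g at 1.76. Oas1a had 3.94, 5.44 and 5.32 FPKM in model thymi, against 5.49, 6.88 and 3.44 FPKM in normal thymi, so the thymi overlapped where the nodules did not. Usp18 in thymus lay within its range in nodules, with 9.43, 11.2 and 12.4 FPKM in model thymi and 9.56, 11.1 and 9.21 FPKM in normal thymi. The change of Isg15 was 1.40 in nodules and -0.53 in thymus. Oas1g had 1.49, 1.41 and 1.49 FPKM in model thymi, against 0.934, 1.87 and 0.884 FPKM in normal thymi.

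Further down came Ifi44 at 1.64, Ifit1 at 1.34, Ifi27 at 1.21, Ifit2 at 1.01, Xaf1 and Igtp at 0.99, Ifit3 at 0.98, Ifih1 at 0.68 and Trim30a at 0.61. Ifi44 had 2.34, 2.47 and 2.84 FPKM in model thymi, against 1.85, 2.06 and 1.949 FPKM in normal thymi, with every model thymus higher. Ifit1 had 13.5, 12.2 and 18.0 FPKM in model thymi, against 14.9, 18.8 and 12.6 FPKM in normal thymi. In Ifi27 the thymi were also mixed, with 41.4, 41.3 and 36.7 FPKM in model mice, against 37.4, 50.9 and 40.6 FPKM in control mice. Neither of these genes separated the thymi. Ifit2 had 12.7, 12.9 and 12.7 FPKM in model thymi, against 10.8, 8.20 and 11.99 FPKM in normal thymi. Xaf1 had 3.60, 4.28 and 4.75 FPKM in model thymi, against 3.40, 3.54 and 3.46 FPKM in normal thymi. Both lay wholly higher in model thymi, by small amounts. Igtp had 49.9, 63.0 and 51.7 FPKM in model thymi, against 65.8, 74.2 and 64.2 FPKM in normal thymi. Ifit3 had 10.9, 15.7 and 16.9 FPKM in model thymi, against 11.6, 13.4 and 11.3 FPKM in normal thymi. Ifit3 thus overlapped between thymi, while Igtp lay wholly lower in model mice. Ifih1 had 3.11, 4.08 and 3.96 FPKM in model thymi, against 3.28, 2.18 and 2.93 FPKM in normal thymi. Trim30a had 14.6, 18.0 and 17.5 FPKM in model thymi, against 12.95, 14.3 and 11.99 FPKM in normal thymi. Of this pair Trim30a lay wholly higher in model thymi and Ifih1 overlapped. Parp9 was the reverse at -0.78 (SE 0.170, adjusted p = 0.00592), since it lay lower in nodules and not in thymus, where it had 13.3, 12.5 and 12.4 FPKM in model mice, against 11.8, 9.49 and 10.04 FPKM in control mice. None of the p200 genes passed, with 0.41 for Ifi204 and 0.46 for Ifi207.

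The last calls were thin. That of Ifit3 (adjusted p = 0.0405) was lost in 12 of 23 alternatives, that of Trim30a (0.0337) in 10 and that of Ifih1 (0.0294) in 9, with adjusted p up to 0.111, 0.235 and 0.0750. For Ifit3 every omission of one mouse's nodules, liver or thymus ended the call but those of the nodules of mouse 25, liver 3 and the thymus of model mouse 25. Without the nodules of mouse 8 the values were 0.73 for Ifit3 (adjusted p = 0.0763), 0.52 for Trim30a (0.0818) and 0.60 for Ifih1 (0.0724). Omissions that ended the call for both Trim30a and Ifih1 were also those of liver 2 (0.0710 and 0.0629 in that order of genes), liver 5 (0.0740 and 0.0632), model thymus 8 (0.0858 and 0.0750) and normal thymus 2 (0.0516 and 0.0611). The call of Trim30a also ended without the nodules of mouse 15 (adjusted p = 0.0565), model thymus 25 (0.0522) or normal thymus 3 (0.0615). That of Ifih1 also ended without the nodules of mouse 25 (adjusted p = 0.0528) or normal thymus 5 (0.0620). The other calls of the interaction passed in each alternative run.

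Normal thymi were set beside normal livers to give the resting levels of the genes in both organs. FPKM is relative to the messenger RNA of each organ, and the direction of many differences depended on the scaling. As deposited, 21 of 36 genes were higher in thymus and 3 lower (58.3% higher, where 61.8% of all genes were higher and 22.8% lower). After median-of-ratios scaling 13 were higher and 14 lower, and after rescaling to the same sum 29 were higher and none lower. The median change of all genes was 0.86 as deposited, 0.07 after median-of-ratios scaling and 1.36 after rescaling. The genes with the largest differences passed under every scaling. Isg20 had 25.3, 35.2 and 28.4 FPKM in normal thymi, against 1.73, 1.94 and 1.93 FPKM in normal livers, a change of 3.41 (adjusted p = 9.57e-08, range over alternatives 1.85e-08 to 1.99e-06). Gbp2 followed with 17.2 to 19.5 FPKM in thymi and 1.42 to 3.84 FPKM in livers (2.55), Oasl2 with 9.73 to 9.95 FPKM in thymi and 0.597 to 1.43 FPKM in livers (2.54), and Igtp and Ifit2 (2.39 each). Trim30a, Ifit1 and Usp18 differed by 2.18, 2.08 and 2.06. Rsad2, Ifih1 and Bst2 were lower in thymus by the deposited values, at -0.59, -0.71 and -0.80, and each call was lost after rescaling to the same sum (adjusted p = 0.315, 0.293 and 0.412).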

How the data were processed

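Polyadenylated RNA was sequenced on an Illumina NovaSeq instrument from stranded libraries, per the labels' protocols. The authors deposited FPKM for 13938 protein-coding genes and 29124 transcripts, per the file headers. HISAT2 2.1.0, StringTie 1.3.3, FastQC 0.11.7 and cutadapt with build mm10 stand in the submitters' processing notes. Strand setting and annotation release were not given in the sources used here, and FPKM keep no depth. Groups come from sample titles, since the tissue field of thymi names liver or nodule. Livers 3 and 5 were used without a link to an animal, since their titles name the same mouse. Titles number the mouse of each other sample.

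Genes at 1 FPKM or more in 3 samples of a comparison were tested as log2(FPKM + 1) with limma 3.58.1 (R 4.3.3; lmFit, eBayes with trend) in two-sided tests and p-values adjusted by Benjamini-Hochberg over the genes kept. The procedure was tested on simulated data. The nodules of a mouse come from 1 animal by title: deviations from group means correlated at 0.311, 0.261 and 0.325 within mice and at -0.243 to -0.0457 between mice. Values in each sample are given for up to 10 called genes by size of change, for at least 1 per role and for those of the interaction; other genes by range. The members and lists were chosen with earlier results of these data known. Coordinates are those of the deposited table (mm10); promoters are RefSeq's, and identities were computed with Biopython 1.88. Alternatives were pseudocounts of 0.1 and 0.5, no filter, a filter at 5 FPKM, 3 scalings, no trend, each replicate left out, big or small nodules alone and the mouse as a block. The list of receptor kinases and transcription factors is not reported here.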

Additional observations from a re-analysis of the deposited data

Results flagged for a closer look

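In 4 of 39 genes the highest of the 6 nodules stood apart from the others by Dixon's criterion (gap over range), and in each it was the small nodule of mouse 8: Ifit1 at 23.55 FPKM, Ifit3 at 44.50, Mx1 at 3.024 and Oas2 at 3.016. Chance flags about 1 in 20 groups, and these genes share that sample, so the 4 are not independent. The 6 nodules are big and small ones of 3 mice.

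In 14 genes the change in nodules differed from that in thymus by the interaction test. The differences, on the log2 scale, were 2.38 for Oas1a, 1.94 for Isg15, 1.84 for Usp18, 1.76 for Oas1g, 1.64 for Ifi44, 1.34 for Ifit1, 1.21 for Ifi27, 1.01 for Ifit2, 0.99 for Xaf1, 0.99 for Igtp, 0.98 for Ifit3, 0.68 for Ifih1, 0.61 for Trim30a and -0.78 for Parp9.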

How the results depend on the processing

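Of the 27 calls among these genes between nodules and livers, 19 passed in the same direction under every alternative in which they could be tested, and none reversed. The number that rose ran from 20 (filter at 5 FPKM) to 28 (same sum). The 1 that fell, Parp9, was not called after rescaling to the same sum or with small nodules alone (0 in each); leaving out single replicates gave 0 to 1. Over all genes, those higher in nodules numbered 1543 under the stricter filter, where fewer genes were tested, and those lower 2216 under median-of-ratios scaling. In thymus, leaving out single replicates gave 0 to 7 genes higher and 0 to 4 lower (7 and 4 without normal thymus 2), none of them among these 39. For nodule size leaving out single replicates gave 0 to 1 gene higher (1 without the small nodule of mouse 8, where the change of Ifit3 turned to 0.02, in a range of -0.81 to 0.02). For the interaction 1513 genes were lower under median-of-ratios scaling, and these genes gave 10 to 16 calls upward and 1 downward over all alternatives. For normal thymi against normal livers, median-of-ratios scaling gave 4762 genes higher and 4423 lower, and 13 and 14 among these genes; quantile normalization gave 13 and 13; the stricter filter left 1 lower and the same sum 0. Leaving out single replicates gave 1719 to 2744 genes lower, with 1719, 1760 and 1748 without livers 2, 3 and 5, and 3 to 5 of these genes lower, 5 without normal thymus 2. The causes of these shifts were not tested beyond the number of genes or samples named. The mouse as a block changed no call among these genes: none passed for nodule size, nor did any of all genes (0), and the interaction again gave 13 and 1. In the interaction the block linked nodules and thymus of model mice only. Livers and thymi of control mice were not linked there or in the comparison of normal organs. Over all genes the interaction gave 1903 higher and 986 lower with the block, against 1848 and 967 without it. Leaving out the small nodule of mouse 8 or the big nodule of mouse 25 was added after seeing the data. With 3 samples a group and no read depth, small changes of genes near 1 FPKM are the least certain.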
